A study of Mus musculus with 6 samples.

Results

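The genes described here are 10 carriers that move amino acids into cells together with sodium ions or protons, measured as mRNA in C2C12 myotubes. They were taken by symbol from the Slc1, Slc6, Slc36 and Slc38 families: Slc1a3, Slc1a4, Slc1a5, Slc6a6, Slc6a9, Slc36a1, Slc38a1, Slc38a2, Slc38a3 and Slc38a4. Each of the 10 had 1 row of its own among the 16700 transcript-level rows of the deposited table, and none lay on a row shared with another gene. C2C12 is a mouse myoblast line, and its myotubes are the fused, differentiated cells. The ATF4 group (3 samples) had been infected with adenovirus carrying eGFP and FLAG-tagged ATF4. The control group (3 samples) had received adenovirus carrying eGFP and FLAG-tagged ATF4∆bZIP, which lacks the bZIP domain that binds DNA. RNA was harvested 48 hours after infection from both groups, so every sample carried a virus, eGFP and an ATF4-derived protein. The myotubes derive from a single line, and the labels give neither the promoter that drove the constructs nor the infected share of cells. The comparison asks which carrier mRNAs differed between myotubes with ATF4 able to act on genes and myotubes with a form that cannot.

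ATF4 is a transcription factor whose translation increases when amino acids are scarce or the endoplasmic reticulum is stressed, and amino acid carriers and synthesis enzymes are among its known targets. Many carriers of the Slc1, Slc6 and Slc38 families use the sodium gradient built by the sodium pump to load amino acids against their own gradients. Within the Slc1 family, Slc1a4 and Slc1a5 are exchangers that depend on sodium. Slc36 carriers use protons instead and also sit on lysosomes, where the amino acid signal to the kinase mTORC1 arises. In muscle, Slc38a2 is known for the uptake of small neutral amino acids, a transport that increases when amino acids are withdrawn, and Slc6a6 for the uptake of taurine.

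The ATF4 protein pairs with C/EBP proteins on a composite DNA element whose core can be written TGATGNAA. The start regions of Slc1a4 and Slc6a9 are shown, carriers with higher means in ATF4 arrays and an entry in the RefSeq promoter table. Slc38a2, with 0 matches to the 3 motifs below in its window, and Slc1a3 also had a higher mean and an entry but are not printed. Each line holds 250 bases before to 50 bases after an annotated start in build GRCm38.p6, read 5′ to 3′ on the gene's strand. Capitals mark matches, on either strand, to TGATGNAA, to the cAMP response element TGACGTCA and to the NF-Y box CCAAT.
Slc1a4, chr11:20332664-20332963, minus strand: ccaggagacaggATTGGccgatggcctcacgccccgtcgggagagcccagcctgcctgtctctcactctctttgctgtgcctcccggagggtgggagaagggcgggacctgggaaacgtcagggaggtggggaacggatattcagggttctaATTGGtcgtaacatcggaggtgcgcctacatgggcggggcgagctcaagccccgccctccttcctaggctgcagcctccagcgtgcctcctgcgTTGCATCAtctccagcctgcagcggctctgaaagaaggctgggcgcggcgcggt
Slc6a9 start 1, chr4:117835008-117835307, plus strand: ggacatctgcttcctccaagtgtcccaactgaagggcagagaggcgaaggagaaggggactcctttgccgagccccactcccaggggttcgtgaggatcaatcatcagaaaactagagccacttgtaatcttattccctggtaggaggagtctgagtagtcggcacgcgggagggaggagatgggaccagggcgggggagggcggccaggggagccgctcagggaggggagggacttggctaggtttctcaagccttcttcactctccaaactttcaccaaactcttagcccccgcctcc
Slc6a9 start 2, chr4:117849100-117849399, plus strand: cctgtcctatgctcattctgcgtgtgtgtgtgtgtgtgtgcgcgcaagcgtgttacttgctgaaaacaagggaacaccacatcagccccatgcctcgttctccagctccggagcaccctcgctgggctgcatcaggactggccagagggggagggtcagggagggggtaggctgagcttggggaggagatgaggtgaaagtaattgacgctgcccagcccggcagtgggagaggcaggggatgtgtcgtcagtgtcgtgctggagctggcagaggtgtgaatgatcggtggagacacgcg
Slc6a9 start 3, chr4:117855297-117855596, plus strand: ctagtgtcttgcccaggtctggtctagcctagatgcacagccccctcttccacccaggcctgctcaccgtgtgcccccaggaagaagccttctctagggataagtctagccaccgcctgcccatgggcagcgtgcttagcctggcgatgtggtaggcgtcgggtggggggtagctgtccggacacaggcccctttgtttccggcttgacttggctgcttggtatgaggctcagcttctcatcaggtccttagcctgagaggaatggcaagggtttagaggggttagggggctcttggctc
In Slc1a4 the letters TTGCATCA, which match the motif's reverse complement TTNCATCA, began 4 bases before the start, at position -4, and ATTGG, the reverse complement of CCAAT, began at -238 and -98. The 3 windows of Slc6a9 held no match to any of these 3 motifs. Of the 10 carriers, 6 had an entry, with 10 windows in all, and the other windows belonged to Slc1a3, Slc36a1, Slc38a2 and Slc38a4. Slc1a5, Slc6a6, Slc38a1 and Slc38a3 had no entry and were not searched. TGATGNAA was found in 1 of the 10 windows, that of Slc1a4, and TGACGTCA in 0. CCAAT was found in Slc1a3, Slc1a4 and the 3 windows of Slc38a4. Over all 32851 windows of this length, 3.97% held TGATGNAA, 1.79% TGACGTCA and 37.4% CCAAT. Among genes of the whole table that were higher in ATF4 arrays, 69 had windows, and 21 of their 92 windows (22.8%) held TGATGNAA. A match is a run of letters and does not show that a protein binds there. A window without a match does not show that the gene lacks the motif, since sequence outside the windows was not searched.

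Values are on the log2 scale, a reading inferred from their range, so each fold rests on it. Middle values differed little between arrays, with medians of 5.76 to 5.93 in ATF4 and 5.79 to 6.0 in control arrays. Both number 3 arrays had a narrower spread than the others: their interquartile ranges were 1.80 (ATF4) and 1.63 (control), against 2.19 to 2.28 on the other 4 arrays. Slc1a3, Slc38a3 and Slc38a4 stood highest on the number 3 array of both groups, and Slc38a1 stood lowest there. The 8 measured myotube markers lay between percentiles 63.4 and 99.7 of rows, among them the sarcomere genes Acta1 and Tnnt3, and 0 of them passed the test used below. The mean of all 8 was lower in ATF4 arrays, by changes of -0.35 to -0.02 (median -0.28); 5 of the 8 were lower within each of the 3 sample numbers, and the groups did not overlap for Ckm, the muscle creatine kinase. Of the other cell types checked, the 4 macrophage markers lay between percentiles 12.8 and 49.8 and the 4 endothelial markers between 12.1 and 29.4. The 3 adipocyte markers lay between 14.2 and 58.0 and the 4 measured myoblast markers between 44.5 and 94.2, and 0 of these markers passed. Mki67 and Cdk1, which mark dividing cells, lay at percentiles 93.0 and 81.5 in ATF4 arrays, and Pax7 and Myf5 at 44.6 and 59.0. The means of all 4 myoblast markers were also lower with ATF4, by changes of -0.40 to -0.03, and the groups did not overlap for Cdk1 (limma adjusted p = 0.839). Of all 16700 rows, 9738 had lower means in ATF4 arrays. Within all 3 sample numbers 24.5% of all rows were lower, and 4.62% were lower with no overlap between groups. Among the macrophage markers the leukocyte phosphatase gene Ptprc averaged 4.94 ± 0.19 in ATF4 and 4.19 ± 0.25 in control arrays (SD, n = 3 each) without passing (limma adjusted p = 0.222). The other 3 macrophage markers did not go with it: Cd68 had a change of -0.35, and Adgre1 and Csf1r were at 0.00 (limma adjusted p = 1 for each). The part of these marker shifts in the carrier results was not tested. In such bulk RNA, fewer cells with a transcript and less of it per cell cannot be told apart.

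The mRNAs of the glycine carrier Slc6a9 and the glutamine carrier Slc1a5 were higher in ATF4 arrays, 3.42-fold and 2.29-fold. The neutral amino acid carriers Slc38a1, Slc1a4 and Slc38a2 had 2.14-fold, 1.76-fold and 1.39-fold higher means in ATF4 arrays; these missed the threshold in the fit without pairing and passed when arrays of one sample number were set against each other. The remaining 5 carriers, for glutamate, taurine, glutamine and small neutral amino acids, had changes between -0.17 and 0.08 on the log2 scale. In the fit of all 16700 rows without pairing (limma, Benjamini-Hochberg adjusted p below 0.05), 2 of the 10 carriers rose, 0 fell and 8 did not pass. At an unadjusted limma p below 0.05, 5 of the 10 were higher and 0 lower, against 3.10% of all rows higher and 2.16% lower. With adjustment, 0.569% of all rows were higher and 0.0240% lower. With the sample number as a block, 5 of the 10 rose and 0 fell, against 2.40% of all rows higher and 1.16% lower. The median change of the 10 carriers was 0.28 on the log2 scale, and that of all rows was -0.03. The carriers were selected with earlier results of these arrays in view, so these counts describe them and are no independent evidence.

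**Figure D1:**
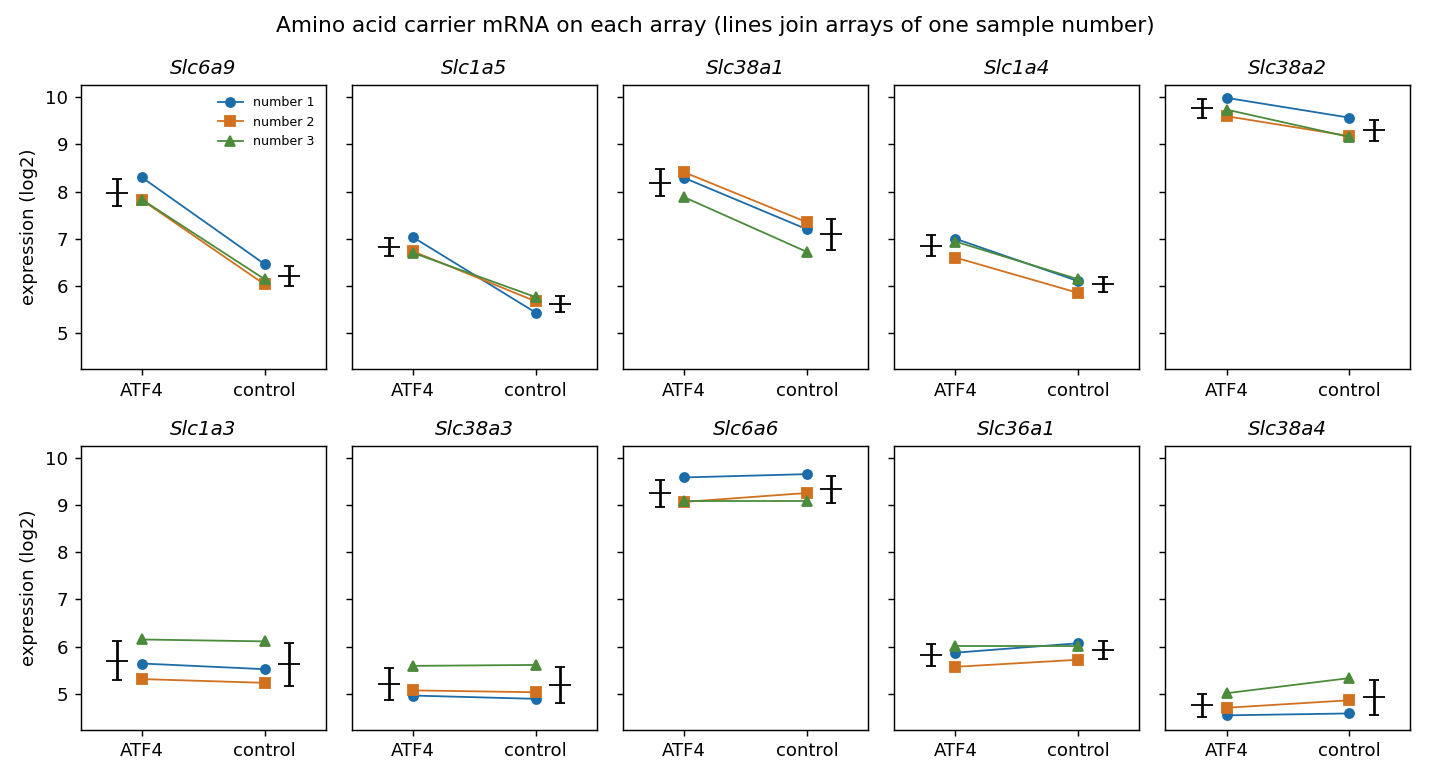
Expression (log2, vertical axis) of the 10 carriers on each array, ATF4 left and control right; coloured lines join arrays of one sample number, and black bars give the mean ± SD (n = 3). For Slc6a9, Slc1a5, Slc38a1, Slc1a4 and Slc38a2 every ATF4 array lies above every control array, while the groups overlap for the lower row of panels.

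Slc6a9, also called GlyT1, carries glycine with sodium and chloride and is best known for clearing glycine around synapses. Its row (transcript cluster 6916663) had 8.30, 7.82 and 7.83 in ATF4 arrays 1 to 3, against 6.46, 6.03 and 6.14 in control arrays 1 to 3. All ATF4 arrays stood above all control arrays, and number 1 was the highest in both groups. The group means were 7.98 ± 0.28 in ATF4 and 6.21 ± 0.22 in control arrays (SD, n = 3 each), a log2 change of 1.77 (standard error 0.21, 95% interval 1.31 to 2.23; limma adjusted p = 0.00308). By size of rise this change ranked 39th among the 16700 rows. It passed under each of the 23 alternatives run for it, with changes from 1.61 to 1.90.

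Slc1a5, also called ASCT2, exchanges glutamine and other neutral amino acids in a sodium-dependent way. Its row (transcript cluster 6958905) had 7.03, 6.73 and 6.70 in ATF4 arrays 1 to 3, against 5.43, 5.67 and 5.76 in control arrays 1 to 3. The groups did not overlap, and number 1 was the highest ATF4 array but the lowest control array. Slc1a5 averaged 6.82 ± 0.19 in ATF4 and 5.62 ± 0.17 in control arrays (SD, n = 3 each), a log2 change of 1.20 (standard error 0.19, 95% interval 0.78 to 1.61; limma adjusted p = 0.0176). The call ended without ATF4 array 1 (limma adjusted p = 0.151), without ATF4 array 2 (0.0683) or without control array 1 (0.114), while the change stayed between 1.09 and 1.27 over the 6 arrays left out in turn. With the block it passed (limma adjusted p = 0.0161), but not when the number 3 pair was then left out (0.0607).

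Slc1a4, also called ASCT1, exchanges alanine, serine, cysteine and threonine. Among the 6 carriers with a promoter entry, it alone had TTGCATCA in its start region. Its row (transcript cluster 6786473) had 7.0, 6.60 and 6.94 in ATF4 arrays 1 to 3, against 6.10, 5.85 and 6.14 in control arrays 1 to 3. The groups did not overlap, and number 2 was the lowest in both. The difference of 0.82 (standard error 0.19, 95% interval 0.40 to 1.24) did not pass without the block (limma adjusted p = 0.125) and passed with it (0.0103). The blocked call ended when the number 3 pair was left out (limma adjusted p = 0.0513). The third measured Slc1 gene of the 10, Slc1a3 (transcript cluster 6833902), encodes the glutamate carrier GLAST, which is best known from astrocytes. It had 5.64, 5.31 and 6.15 in ATF4 arrays 1 to 3, against 5.52, 5.23 and 6.11 in control arrays 1 to 3. Here the arrays sorted by sample number, and the groups overlapped. Its change was 0.08 with a 95% interval of -0.53 to 0.69 (limma adjusted p = 1 without and 0.675 with the block).

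Slc38a1, Slc38a2 and Slc38a4 are consecutive protein-coding genes on mouse chromosome 15 in the RefSeq order of GRCm38.p6, and all 3 encode system A carriers, which take up small neutral amino acids with sodium. The changes of the 3 neighbours were 1.10, 0.47 and -0.17 on the log2 scale. Slc38a1 (SNAT1; transcript cluster 6838256), which favours glutamine, had 8.29, 8.41 and 7.88 in ATF4 arrays 1 to 3, against 7.20, 7.35 and 6.72 in control arrays 1 to 3. The groups did not overlap, and number 3 was the lowest in both. The change of 1.10 (standard error 0.23, 95% interval 0.60 to 1.60) missed the threshold without the block (limma adjusted p = 0.0745) and passed with it (0.00420). Without the block it also passed when ATF4 array 3 (limma adjusted p = 0.0301), control array 3 (0.0493) or both (0.0381) were left out. Quantile normalization (limma adjusted p = 0.0270) or cyclic loess (0.0184) also brought it past the threshold. It failed without ATF4 array 1 (limma adjusted p = 0.372), ATF4 array 2 (0.32), control array 1 (0.224) or control array 2 (0.0601). It also failed after arrays were centred on the median (limma adjusted p = 0.291) or scaled to a shared median and interquartile range (0.0651).

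Slc38a2 (SNAT2; transcript cluster 6838257), the system A carrier that adapts to amino acid supply, had 9.99, 9.60 and 9.74 in ATF4 arrays 1 to 3, against 9.57, 9.18 and 9.16 in control arrays 1 to 3. The groups did not overlap, with the lowest ATF4 array (9.60) just above the highest control array (9.57). The change was 0.47 (standard error 0.20, 95% interval 0.04 to 0.91; limma adjusted p = 0.817 without and 0.0473 with the block). The blocked call ended when any of the 3 numbered pairs was left out, with limma adjusted p from 0.0761 to 0.149. Its row lay at percentile 98.6 of rows in ATF4 and 97.4 in control arrays. Slc38a4 (SNAT4; transcript cluster 6838287), an imprinted gene that also carries cationic amino acids, had 4.54, 4.70 and 5.01 in ATF4 arrays 1 to 3, against 4.58, 4.86 and 5.33 in control arrays 1 to 3. The groups overlapped, and number 3 was the highest in both. Its change was -0.17 (95% interval -0.68 to 0.34; limma adjusted p = 1 without and 0.400 with the block).

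Slc38a3 (SNAT3; transcript cluster 6998643) is the system N carrier of glutamine, histidine and asparagine, known from liver, kidney and brain. It had 4.96, 5.07 and 5.59 in ATF4 arrays 1 to 3, against 4.89, 5.03 and 5.61 in control arrays 1 to 3, with number 3 highest in both groups. The change was 0.03 (95% interval -0.52 to 0.57; limma adjusted p = 1). Its row lay at percentile 33.4 of rows in ATF4 and 31.6 in control arrays, and that of Slc38a4 at 22.0 in ATF4 and 25.3 in control arrays. No detection calls were used, so how far such dim rows stand above background is not known, and their folds may be understated.

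Slc6a6, the taurine carrier TauT, is known for the high taurine content of muscle. Its row (transcript cluster 6948015) had 9.59, 9.07 and 9.10 in ATF4 arrays 1 to 3, against 9.66, 9.26 and 9.10 in control arrays 1 to 3. The groups overlapped, with a change of -0.09 (95% interval -0.57 to 0.40; limma adjusted p = 1), at percentile 97.0 of rows in ATF4 and 97.5 in control arrays. Slc36a1 (PAT1; transcript cluster 6781111) exports small neutral amino acids from lysosomes together with protons and also takes them up at the cell surface. It had 5.87, 5.57 and 6.01 in ATF4 arrays 1 to 3, against 6.07, 5.72 and 6.01 in control arrays 1 to 3. The groups overlapped, with a change of -0.12 (95% interval -0.55 to 0.31; limma adjusted p = 1). For 6 of the 10 carriers, Slc38a2 among them, the interval lay wholly between -1 and 1. For these a doubling or halving of the array signal lies outside the interval. Slc38a3 and Slc38a4 are among the 6, and for such dim rows the signal may understate the change in mRNA.

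**Figure D2:**
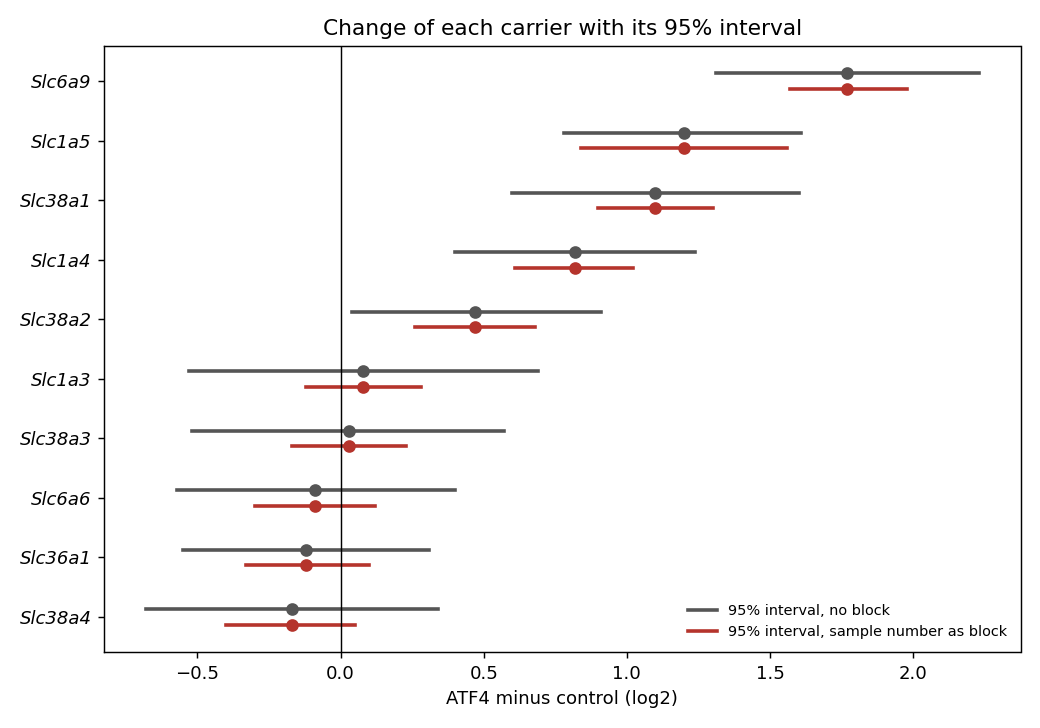
Log2 change (ATF4 minus control, horizontal axis) of each carrier with its 95% interval from limma, grey without and red with the sample number as a block (n = 3 arrays per group). The intervals of Slc6a9, Slc1a5, Slc38a1, Slc1a4 and Slc38a2 lie above 0 in both fits, and those of the other 5 include 0 in both; these intervals are not adjusted for the number of rows.

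Within a sample number the differences were tighter than the groups for 9 of the 10 carriers. The share of all rows with this trait was not computed. Deviations of same-numbered arrays correlated by 0.578 to 0.782 across all rows, so the count is not shown to be particular to these carriers. The Slc6a9 difference was 1.85, 1.79 and 1.68 in numbers 1 to 3, with an SD of 0.0825 against 0.252 among arrays of a group. The Slc38a1 difference was 1.09, 1.06 and 1.16, with an SD of 0.0515 against 0.305. For both carriers the arrays of one number were displaced together, by much the same amount in ATF4 and control. The Slc1a4 difference was 0.90, 0.75 and 0.80, and the Slc38a2 difference 0.42, 0.42 and 0.58. Slc1a5 was the exception: its difference was 1.60, 1.05 and 0.94, with an SD of 0.356 against 0.179 among arrays of a group. Of the 10 carriers, 6 were higher in ATF4 within all 3 numbers, as 17.0% of all rows were, and 3 were lower within all 3 on the unrounded deposited values, as 24.5% of all rows were. Among these 3, Slc6a6 and Slc36a1 had number 3 arrays that were equal at 2 decimals. The 5 carriers whose groups did not overlap were all higher in ATF4, a pattern that 4.50% of all rows showed, with 4.62% of rows wholly lower.

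**Figure D3:**
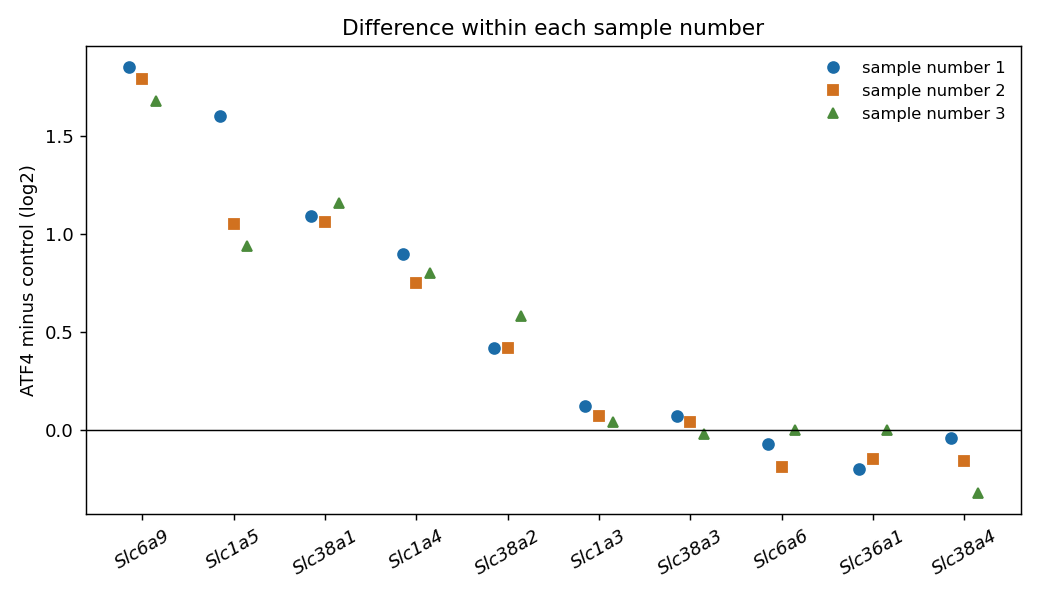
Difference between the ATF4 and the control array of the same sample number (log2, vertical axis) for each carrier, with 1 point per number. The points of Slc6a9 (1.68 to 1.85) and Slc38a1 (1.06 to 1.16) lie close together, while those of Slc1a5 run from 0.94 to 1.60.

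Other listed carriers of the same 4 families did not pass. Of 27 listed amino acid and GABA carriers, 25 had a row of their own, and 0 rose or fell without the block, 0 with it and 0 at an unadjusted limma p below 0.05. Their changes ran from -0.32 to 0.36 with a median of -0.04. The neuronal and epithelial glutamate carrier Slc1a1 had the smallest p, with means of 5.17 ± 0.16 in ATF4 and 4.81 ± 0.38 in control arrays (limma adjusted p = 1). The carrier gene Slc38a6 came next, with 5.98 ± 0.32 in ATF4 and 6.30 ± 0.32 in control arrays (limma adjusted p = 1). Whether the 10 carriers differ from these 25 was not tested.

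Among 19 exchangers and uniporters of the Slc7, Slc3 and Slc43 families, which mostly work without a sodium or proton gradient, 4 rose and 0 fell without the block, and 5 rose with it. The 4 were the cystine exchanger Slc7a11, the arginine and lysine carrier Slc7a3, the large neutral amino acid carrier Slc7a5 and Slc3a2, the heavy chain that Slc7a5 and Slc7a11 need at the cell surface. Slc3a2 averaged 9.0 ± 0.27 in ATF4 and 7.61 ± 0.34 in control arrays (SD, n = 3 each), a change of 1.39 (limma adjusted p = 0.0223). The median of the list was 0.01, and 14 of its 19 genes passed in neither fit. The count without the block was 2 without ATF4 array 1, 1 without ATF4 array 2 and 2 after centring arrays on the median.

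The sodium pump builds the gradient that the sodium-coupled carriers use. It had 11 measured genes among 15 listed, and none of the catalytic Atp1a subunits had a row of its own. Without the block 0 of the 11 passed. With it 3 fell, against 1.16% of all rows. Leaving out a numbered pair changed that count to 2 without pair 1 and to 0 without pair 3. Of the 4 measured beta subunit genes, Atp1b1 and Atp1b2 had lower values in every ATF4 array than in any control array. Of all rows, 4.62% showed this pattern. The other measured beta subunit genes, Atp1b3 and Atp1b4, were named in addition to the genes picked by rule. Each had a change of -0.03 (limma adjusted p = 1). Atp1b1 averaged 6.94 ± 0.35 in ATF4 and 7.72 ± 0.36 in control arrays, a change of -0.78 (limma adjusted p = 0.383 without and 0.0113 with the block). Atp1b2 averaged 6.11 ± 0.12 in ATF4 and 6.84 ± 0.12 in control arrays, a change of -0.73 (limma adjusted p = 0.143 without and 0.0325 with the block). The third to fall was Fxyd6, a pump regulator, with a change of -0.61 (limma adjusted p = 0.850 without and 0.0185 with the block). Its groups overlapped. Fxyd1 had a change of -0.43 with no overlap between groups (limma adjusted p = 0.892 without and 0.147 with the block). Fxyd6 and Fxyd1 were named after their values were seen.

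Enzymes that make or use the carried amino acids were also examined. Of 7 measured enzymes of glutamine and glutamate, 1 rose without the block, asparagine synthetase (Asns), which spends glutamine, with a change of 2.04 (limma adjusted p = 0.00646). With the block 3 rose, Asns, Gpt2 and the aspartate aminotransferase Got1 (0.61), and this count was 1 when the number 3 pair was left out. Without the block the count was 0 after centring arrays on the median and 2 without control array 3. The alanine aminotransferase Gpt2 averaged 7.08 ± 0.21 in ATF4 and 6.12 ± 0.09 in control arrays (limma adjusted p = 0.0537 without and 0.0110 with the block). Gpt, the other alanine aminotransferase, had a change of -0.46 with no overlap between groups (limma adjusted p = 0.762 without and 0.0519 with the block). Got1 and Gpt were named after their values were seen. Glutamine synthetase (Glul) had a change of 0.09 (limma adjusted p = 1), and was picked as the enzyme that makes glutamine. Of 8 measured enzymes of serine and glycine, 2 rose without the block, the mitochondrial Shmt2, which makes glycine from serine, by 1.67 (limma adjusted p = 0.0311) and the serine synthesis enzyme Psph by 1.37 (0.00891). The count was 0 without ATF4 array 1, 1 without ATF4 array 2 and 1 without control array 2. With the block 3 rose and 1 fell, and this count of 4 was 2 when the number 3 pair was left out. The block added 2 genes, Psat1 and Gcsh, named after their values were seen. The serine synthesis enzyme Psat1 had a change of 1.16 (limma adjusted p = 0.0394 with the block). Gcsh, a protein of the glycine cleavage system, had a change of -0.86 (limma adjusted p = 0.0331 with the block). The Gcsh groups overlapped, and its dim row lay at percentile 1.54 of rows in ATF4 and 5.75 in control arrays.

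Of 5 measured genes of taurine synthesis and the hypertonic response, which also induces Slc6a6 and Slc38a2, 0 passed with or without the block, and 0 did at an unadjusted limma p below 0.05. The taurine synthesis enzyme Csad had a change of -0.16 and the inositol carrier Slc5a3 -0.13 (limma adjusted p = 1 for each). Of 5 measured Rag GTPase and Ragulator genes, which act beside Slc36a1 on lysosomes, 0 passed with or without the block, and 0 did at an unadjusted limma p below 0.05. Rragd had a change of -0.36 and Rragc 0.25 (limma adjusted p = 1 for each).

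**Figure D4:**
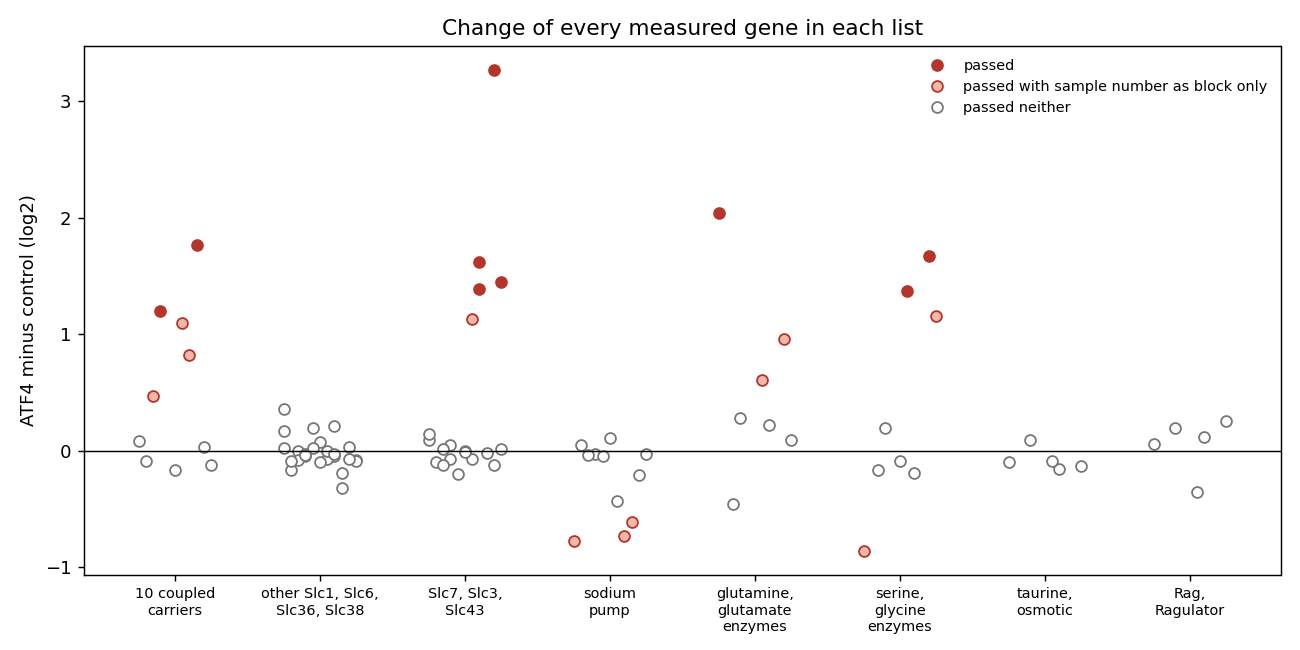
Log2 change (ATF4 minus control, vertical axis) of every measured gene in 8 lists, with 1 circle per gene; filled red circles passed (limma adjusted p below 0.05), pale ones passed with the sample number as a block only, and open ones passed in neither fit. Other carriers of the 4 families lie between -0.32 and 0.36, and 3 sodium pump genes are pale below 0.

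For the 2 carriers that rose without the block, the rows with the most similar profiles over the 6 arrays were looked up among 14535 other named rows. Likeness was the root mean square difference on the log2 scale after each row's own mean was taken off. Closest to Slc6a9 were the elastic fibre gene Fbln5 (0.0880), the SLAM family receptor gene Slamf9 (0.192) and the ETS factor gene Etv5 (0.197), whose changes were 1.66, 1.84 and 1.47. Closest to Slc1a5 were the phospholipase gene Plch1 (0.0585), the leucine-rich repeat gene Lrrc17 (0.0917) and the acyltransferase gene Gpat3 (0.10), with changes of 1.22, 1.22 and 1.09. Among the 10 carriers themselves, the closest pair was Slc38a3 and Slc38a4 (0.126), both highest on the number 3 arrays. Slc6a9 lay 0.366 from its nearest carrier, Slc1a5.

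**Figure D5:**
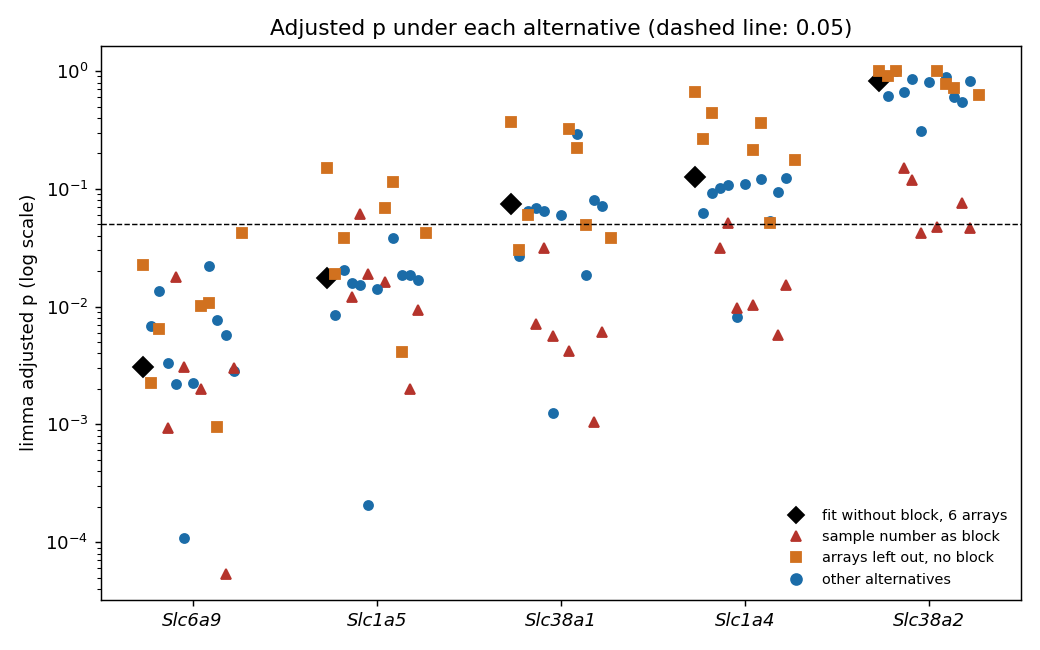
Limma adjusted p (log scale, vertical axis) of 5 carriers without the block over all 6 arrays (black) and under each alternative, with the threshold of 0.05 dashed. Every point of Slc6a9 lies below the line, those of Slc1a5 and Slc38a1 lie on both sides, and Slc38a2 is below it in 3 settings, each with the block.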

How the data were processed

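Deposited values, 1 per array and transcript cluster of an Affymetrix mouse exon array, were taken as log2 expression; that scale is inferred. GCOS, RMA and build mm9 are named in the submitters' processing notes, without versions or settings. GEO's platform annotation gave 14988 rows a single symbol, 1018 several and 694 none. A gene with several rows was represented by the brightest. All 16700 rows were fitted with limma 3.58.1 in R 4.3.3 (two-sided, no filter, 4 residual and 6.30 prior degrees of freedom; 2 and 3.77 with the block), and intervals cover 95%. An exact permutation test of 3 against 3 cannot reach 0.05. The scripts were tested on simulated data. The labels do not say that samples are separate cultures, so p-values measure spread that may be technical. The number of arrays limits precision.

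Sample numbers in the titles were read as pairs, since deviations from group means correlated by 0.578, 0.636 and 0.782 across rows between same-numbered arrays (limit 0.1) and by -0.666 to 0.221 otherwise. Carriers, lists and alternatives were chosen with earlier results of these data known. All 10 carriers are named; of each list, up to 4 genes past the threshold by size, or, where fewer than 2 passed, the 2 of smallest p. Exceptions in these lists are marked where they are named, and cell type markers fell outside this rule. Protein sequences were not used here.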

Additional observations from a re-analysis of the deposited data

How the results depend on the processing

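The count of carriers that passed was 2, and 5 with a replicate block on sample number, also when the block was joined with quantile normalization (5) or cyclic loess (5). It was 4 with array weights, 1 at an adjusted p below 0.01, 1 to 3 with each array left out, and 2 to 4 with the block and a numbered pair left out. All carriers that passed in any setting were higher in ATF4. Of all rows, 99 passed, 594 with the replicate block, 565 and 616 with the block joined to quantile normalization and to cyclic loess, and 354, 630 and 261 with the block and pair 1, 2 or 3 left out. The row count was 57 after centring on the median, 151 after cyclic loess, 561 with array weights, 157 without both number 3 arrays (123 higher, 34 lower), 41 at an adjusted p below 0.01, and 38 to 243 with each array left out, with 38 without ATF4 array 1, 44 without ATF4 array 2, 49 without control array 1 and 243 without control array 3. Joining the block to other choices was added after seeing the data. Slc6a9 passed in 23 of 23 alternatives, Slc1a5 in 19, Slc38a1 in 12, Slc1a4 in 6 and Slc38a2 in 3; the other 5 carriers passed in 0. Slc1a4 passed with array weights (limma adjusted p = 0.00813), and Slc38a1 did too (0.00125). The cause of these shifts was not tested. The filter on dim rows left out Slc38a4 at the 25th percentile, and Slc1a3 and Slc38a3 as well at the median. None of the 25 other listed carriers of the 4 families with a row of their own passed in any of the 24 alternatives. Dim rows have no detection calls, which limits what their small changes show.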
